A study of Mus musculus with 6 samples.

Results

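The Notch genes described here are the 4 receptors Notch1, Notch2, Notch3 and Notch4, the 3 ligands Jag1, Jag2 and Dll1, and the 3 target genes Hes1, Hey1 and Nrarp. They were taken by symbol from a table of 19739 genes, and 10 of 10 were found in it and passed the filter on low values. The table covers 6 RNA sequencing libraries of wild-type mouse mammary luminal cells, which line the lumen of the gland's ducts. The sorted cells were cultured in DMEM/F12 medium; it held 5% serum, 10 ng/ml EGF and 20 ng/ml FGF2, with 4 µg/ml heparin and 5 µM of the kinase inhibitor Y-27632. All 6 cultures were then held for 12 hours without serum. The 3 control libraries come from cells kept without EFNA3 protein, and the 3 EFNA3 libraries from cells kept with it at 1 µg/ml in serum-free medium for 24 hours. EFNA3 is ephrin-A3, a ligand of Eph receptors that is normally anchored in the membrane of a neighbouring cell. Whether the 3 replicates of a group are separate animals or cultures is not in the labels. The p-values therefore measure only how far these samples vary, and that variation may be technical.

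Notch receptors are single-pass membrane proteins that bind Jagged or Delta-like ligands on a neighbouring cell. Binding lets ADAM proteases and then gamma-secretase cut the receptor, and the freed intracellular part enters the nucleus, joins the DNA-binding protein RBPJ and a Mastermind coactivator, and turns on targets such as the Hes and Hey repressor genes. In the mammary gland, Notch signalling is known for its part in the luminal lineage, and Notch1 and Notch3 are used to mark luminal cells and their progenitors.

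None of the 10 genes passed the test for a difference between the cells with and without EFNA3, and 0 of the 16394 genes tested did (0%; limma, adjusted p under 0.05), while 1104 had an unadjusted p under 0.05. Notch1, Notch2 and Notch3 had lower means with EFNA3, by -0.36, -0.22 and -0.25 on the log2 scale. Hes1 and Hey1 had higher means, each by 0.17. The 3 ligand genes and Nrarp lay within 0.055 of the controls. For Notch1, Notch2, Notch3, Hes1 and Hey1 the departure from the controls was largest in 1 library, EFNA3 replicate 1, in which the values of all genes varied with transcript length.

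The upstream sequences of the 3 receptors that were low together in that library, and of the target Nrarp, are shown as the regulatory context of these genes. They are the 250 bases before the start site in RefSeq, build GRCm38.p6, written in the direction of transcription; the deposited values were counted on another build, and the sequences were matched by symbol. Upstream sequences matched for 8 of the 10 members, with 2 start sites for Dll1; Hes1 and Hey1 did not match. The Notch1 window is chr2:26503823-26504072 on the minus strand, that of Notch2 chr3:98013288-98013537 on the plus strand, that of Notch3 chr17:32166891-32167140 on the minus strand and that of Nrarp chr2:25180508-25180757 on the plus strand. Capitals mark matches, on either strand, to CACNAG, the N-box bound by Hes repressors, or to CACGTG, an E-box.
Notch1: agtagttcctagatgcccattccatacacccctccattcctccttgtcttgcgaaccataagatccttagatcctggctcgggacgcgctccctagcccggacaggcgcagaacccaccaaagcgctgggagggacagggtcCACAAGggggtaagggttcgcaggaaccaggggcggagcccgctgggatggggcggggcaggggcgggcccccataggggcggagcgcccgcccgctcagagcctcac
Notch2: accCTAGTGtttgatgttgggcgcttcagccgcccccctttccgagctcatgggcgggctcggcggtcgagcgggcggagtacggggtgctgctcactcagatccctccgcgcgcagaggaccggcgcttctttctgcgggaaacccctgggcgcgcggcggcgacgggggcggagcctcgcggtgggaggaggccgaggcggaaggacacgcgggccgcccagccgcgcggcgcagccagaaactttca
Notch3: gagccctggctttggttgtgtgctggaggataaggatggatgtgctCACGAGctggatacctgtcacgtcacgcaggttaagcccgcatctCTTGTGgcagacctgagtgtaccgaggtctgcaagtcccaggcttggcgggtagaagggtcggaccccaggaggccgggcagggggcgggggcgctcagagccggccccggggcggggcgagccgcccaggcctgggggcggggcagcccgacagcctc
Nrarp: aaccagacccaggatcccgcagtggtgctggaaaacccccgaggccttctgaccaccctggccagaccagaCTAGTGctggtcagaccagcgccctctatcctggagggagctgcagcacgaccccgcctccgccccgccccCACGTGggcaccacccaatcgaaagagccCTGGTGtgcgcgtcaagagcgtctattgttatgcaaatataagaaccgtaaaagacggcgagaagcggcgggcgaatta

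The core letters of RBPJ sites, TGGGAA, were in 0 of the 9 member windows on either strand, and in 21.6% of all 32851 windows of this length in the table. CACGTG was found once, in Nrarp, starting 108 bases before the start site, and is in 6.02% of all windows. CACNAG was found once in Notch1, once in Notch2, at 2 places in Notch3 and at 2 in Nrarp, and is in 36.7% of all windows. These matches did not overlap each other. A match is a run of letters and not a measured binding site. The 4 printed windows held 66.0%, 72.0%, 68.8% and 61.2% G and C, against a median of 52.4% over all windows. They were also the only member windows with any match, so CACNAG was in 4 of the 9, not far from its share of 36.7% over all windows. The others, of Notch4, Jag1, Jag2 and the 2 start sites of Dll1, had none. These held 58.4%, 57.2%, 87.2%, 64.0% and 56.0% G and C. Any link between the matches and the receptor values was not tested.

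The levels of the members in control cells spanned a wide range. On the deposited log2 scale, which is not divided by length, the control mean of Notch1 was 12.96 ± 0.07 (SD, n = 3), above 97.9% of all genes in the table, and that of Notch4 was 5.50 ± 0.35, above 33.3%. Divided by the length of the longest annotated transcript, the order on the log2 scale per kb was Hes1 at 10.21, Notch1 at 9.72, Hey1 at 9.69, Jag1 at 9.67, Jag2 at 9.58, Notch3 at 9.22, Notch2 at 8.75, Dll1 at 8.13, Nrarp at 6.85 and Notch4 at 2.78. From Notch1 to Jag2, neighbours in this order differed by less than the sum of their ranges over the control libraries, and so did not differ beyond their spread. The other steps were larger than that spread, down to the gap of 4.07 between Nrarp and Notch4. Notch4, a receptor best known from endothelial cells, was thus the lowest member by far.

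The order rests on the length used. Per kb of coding sequence, 8 of the 10 members changed place: Hey1 came first at 11.13, Hes1 next at 11.00, and Nrarp, whose transcript of 2582 nt codes for only 342 nt, moved from 9th to 6th at 9.76. Notch4 was last on every scale, at 2.94 per coding kb.

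**Figure D1:**
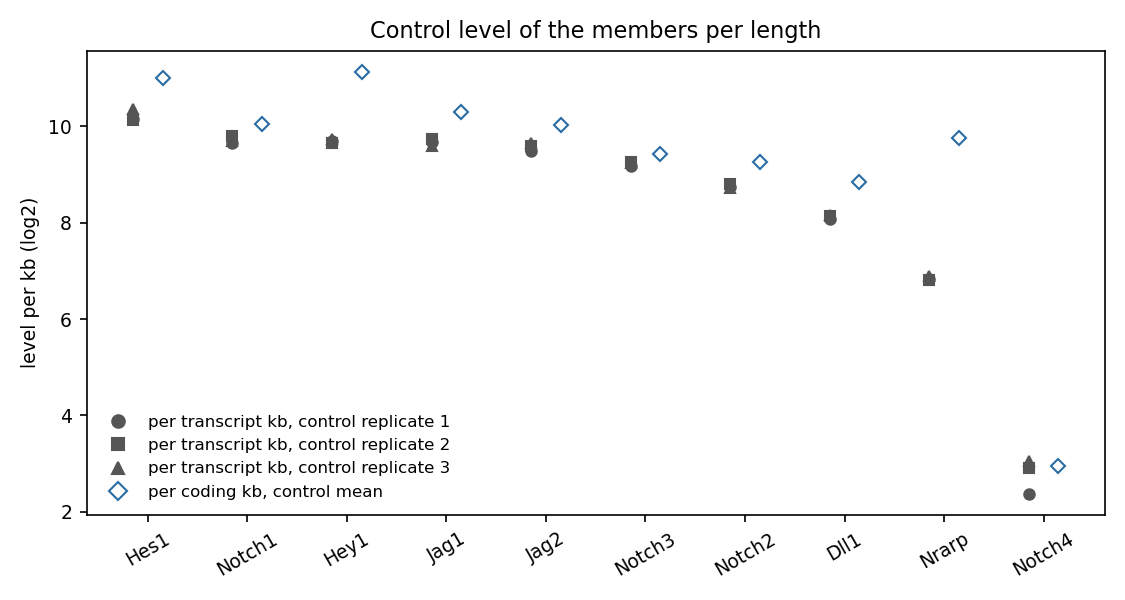
Level of each member in the control libraries (y axis, log2 per kb; x axis, members in order of level per transcript kb). Filled symbols are the 3 control libraries per kb of transcript and open diamonds the control mean per kb of coding sequence; Hes1 at 10.21 and Hey1 at 11.13 lead the respective scales, and Notch4 lies lowest on both.

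The comparison asks how EFNA3 protein in the medium affects these genes, beginning with the receptors. Notch1 stood at 12.90, 13.04 and 12.94 in control replicates 1, 2 and 3 and at 12.14, 12.89 and 12.78 in EFNA3 replicates 1, 2 and 3 (log2 values, as for all members here). All 3 EFNA3 libraries lay below all 3 controls, narrowly for replicate 2 and widely for replicate 1. The difference of means was -0.36 (SE 0.17; 95% interval -0.74 to 0.03; 0.78-fold), and limma gave an unadjusted p of 0.065 and an adjusted p of 0.55. Notch1 was the only 1 of the 10 members whose groups did not overlap, while 16% of all genes tested had no overlap: 7.45% of all genes lay wholly lower with EFNA3 and 8.53% wholly higher. In bulk RNA, fewer cells that express a gene and less of its RNA per cell cannot be told apart.

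Notch2 stood at 12.13, 12.20 and 12.11 in the controls and at 11.55, 12.14 and 12.09 with EFNA3. Replicate 1 was the low library, and replicate 2 lay inside the control range. The difference was -0.22 (SE 0.14; 95% interval -0.54 to 0.10; limma adjusted p = 0.55).

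Notch3 stood at 12.17, 12.26 and 12.23 in the controls and at 11.57, 12.20 and 12.13 with EFNA3. The groups overlapped, with replicate 1 again well below the rest. The difference was -0.25 (SE 0.15; 95% interval -0.58 to 0.08; limma adjusted p = 0.55). Notch3 is also expressed by pericytes: the summed level of 6 pericyte markers was 7.46 to 7.57 over the controls and 7.79 to 7.88 over the EFNA3 libraries (log2), led by Rgs5 at 6.62 and Cspg4 at 5.28 in controls, with 2 of 6 under the filter on low values. Their part in the Notch3 result was not tested.

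Notch4 went the other way from the other receptors. It stood at 5.10, 5.64 and 5.76 in the controls and at 5.74, 5.88 and 5.64 with EFNA3. The low point was control replicate 1, and the rest of the values overlapped. The difference of 0.25 (SE 0.23; 95% interval -0.26 to 0.77; limma adjusted p = 0.64) was 0.054 without control replicate 1.

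**Figure D2:**
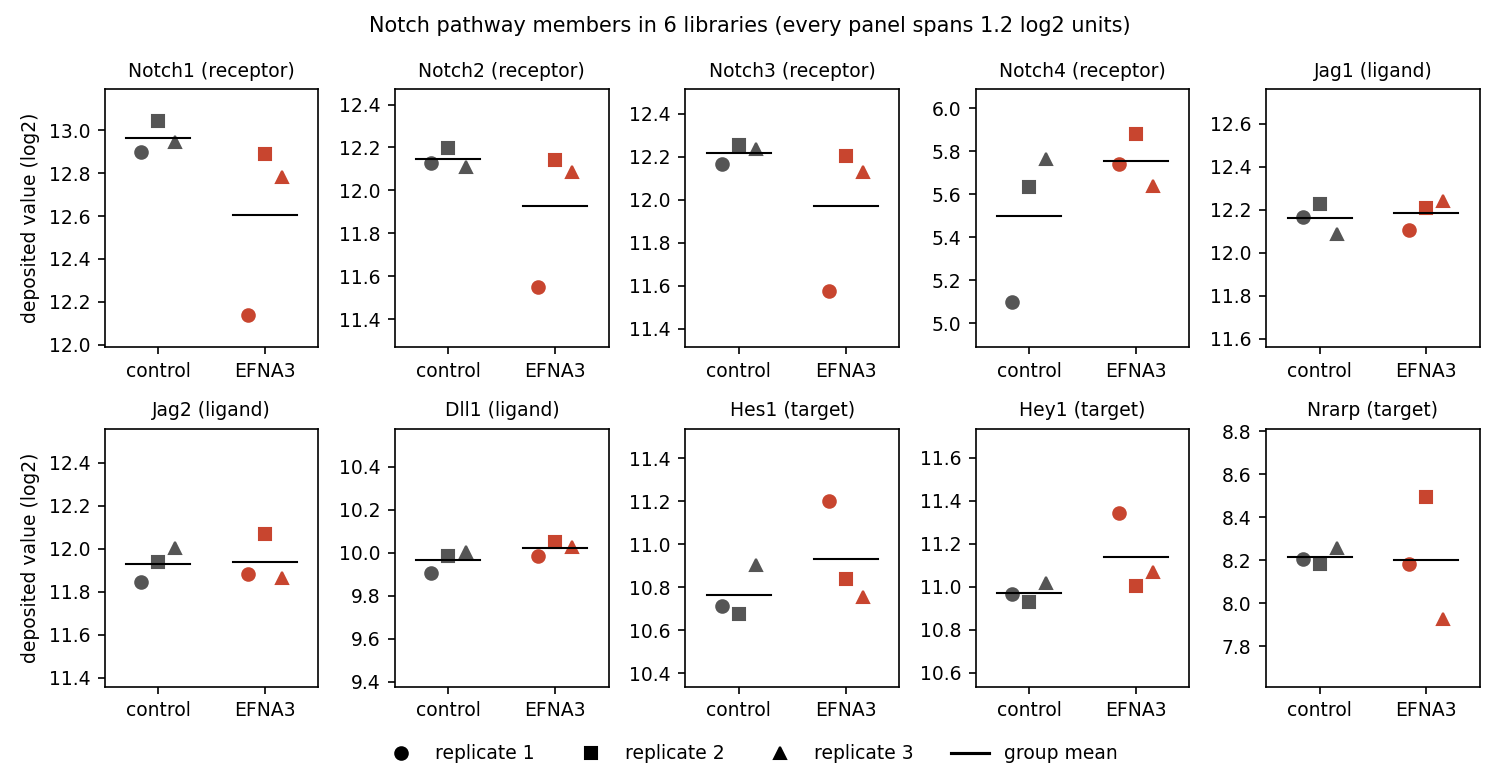
Deposited log2 value (y axis) of each member in the 3 control and 3 EFNA3 libraries (x axis, groups; symbols, replicates; bars, group means), every panel spanning 1.2 log2 units. EFNA3 replicate 1 lies well below the other libraries for Notch1, Notch2 and Notch3, at 12.14, 11.55 and 11.57, and above them for Hes1 and Hey1, at 11.20 and 11.34.

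The ligand genes differed little. Jag1, a Jagged ligand, stood at 12.17, 12.23 and 12.09 in the controls and at 12.11, 12.21 and 12.24 with EFNA3. The groups overlapped over nearly their whole range, and the difference was 0.025 (SE 0.071; 95% interval -0.14 to 0.19; limma adjusted p = 0.89). Jag2 stood at 11.85, 11.94 and 12.00 in the controls and at 11.89, 12.07 and 11.87 with EFNA3. Only EFNA3 replicate 2 left the control range, and the difference was 0.011 (SE 0.080; 95% interval -0.17 to 0.19; limma adjusted p = 0.96).

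Dll1, a Delta-like ligand, stood at 9.91, 9.99 and 10.00 in the controls and at 9.99, 10.05 and 10.03 with EFNA3. The EFNA3 libraries sat at or just above the upper controls. The difference was 0.055 (SE 0.073; 95% interval -0.11 to 0.22; limma adjusted p = 0.75). These intervals leave room for changes of the Jagged genes up to 0.19 and of Dll1 up to 0.22 on the log2 scale.

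Hes1 and Hey1 encode basic helix-loop-helix repressors that Notch induces. Hes1 stood at 10.71, 10.67 and 10.90 in the controls and at 11.20, 10.84 and 10.75 with EFNA3. EFNA3 replicate 1 was the highest library and the other EFNA3 libraries lay inside the control range. The difference was 0.17 (SE 0.12; 95% interval -0.11 to 0.44; limma adjusted p = 0.57).

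Hey1 stood at 10.97, 10.93 and 11.02 in the controls and at 11.34, 11.00 and 11.07 with EFNA3. Replicate 1 was again the highest, and the groups overlapped only through EFNA3 replicate 2 and control replicate 3. The difference was 0.17 (SE 0.09; 95% interval -0.05 to 0.38; limma adjusted p = 0.55).

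Nrarp encodes an ankyrin repeat protein that is induced by Notch and damps it in return. It stood at 8.21, 8.18 and 8.25 in the controls and at 8.18, 8.49 and 7.93 with EFNA3. The controls were tight (SD 0.04), while EFNA3 replicates 2 and 3 lay on opposite sides of them (SD 0.28). The difference was -0.012 (SE 0.14; 95% interval -0.34 to 0.31; limma adjusted p = 0.98). The 3 targets therefore did not take the same order over the EFNA3 libraries.

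Over the 10 members the median difference was 0.018, beside 0.0038 over all genes tested, with 6 higher and 4 lower. Of all genes tested, 50.8% were higher and 49.2% lower. None of the members had an unadjusted limma p under 0.05, against 6.73% of all genes tested.

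Values in EFNA3 replicate 1 ran with transcript length, and Notch1, Notch2 and Notch3 lay on the opposite side of 0 from Hes1, the shortest member. In that library, the median deviation from the mean of the other 5 libraries was 0.27 for genes of 1064 to 1778 nt and -0.39 for genes of at least 5951 nt, the longest of 8 classes of about equal size. Control replicates 1, 2 and 3 stood at -0.085, -0.12 and -0.0082 in the former class and at 0.135, 0.15 and 0.039 in the latter. For these, the other 5 libraries include EFNA3 replicate 1. The longest annotated transcripts of Notch1, Notch2 and Notch3 are 9488, 10500 and 8016 nt, and their deviations in EFNA3 replicate 1 were -0.77, -0.58 and -0.62. These were lower than the median of their class, and 9.86%, 24.2% and 20.1% of the genes of that class lay lower still. Notch4, at 6591 nt, stood at 0.14 in the same class, above 93.9% of it.

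Hes1, with a transcript of 1468 nt, deviated by 0.42 in EFNA3 replicate 1, where the median of its class was 0.27. Hey1, at 2423 nt, deviated by 0.35, where the median of its class was 0.091, and lay above 85.3% of that class. Nrarp, of similar length at 2582 nt, deviated by -0.031. Jag1 and Jag2, at 5612 and 5106 nt, deviated by -0.078 and -0.060, above their class median of -0.19. Whether transcript length has a part in the differences of single members was not tested.

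**Figure D3:**
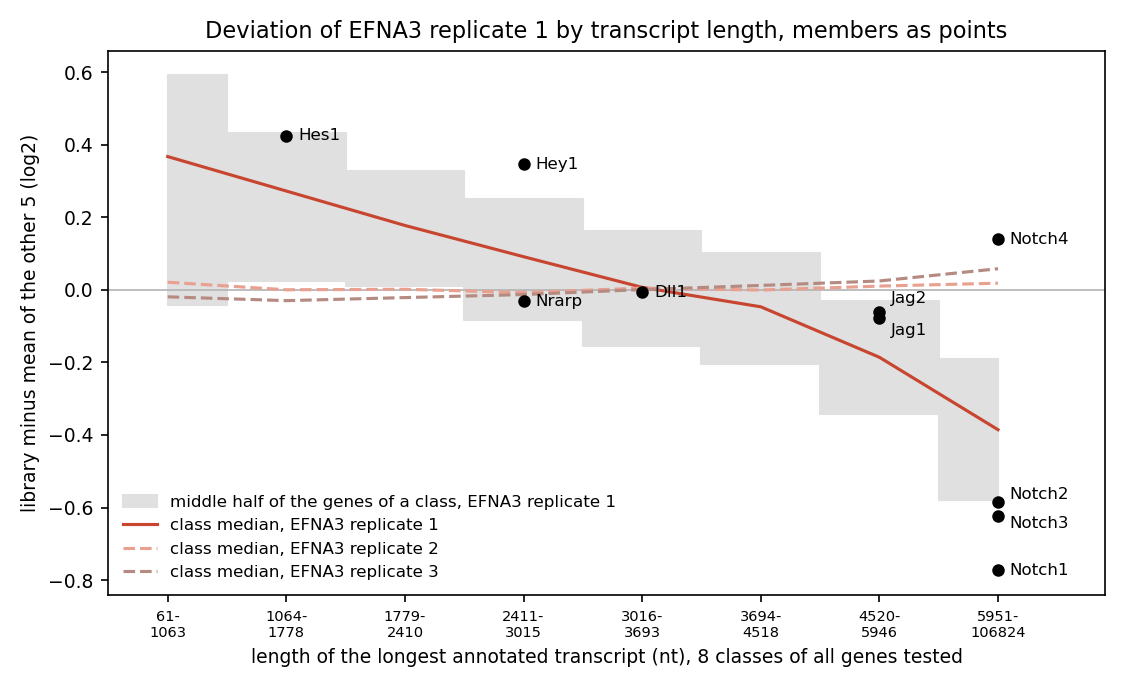
Deviation of EFNA3 replicate 1 from the mean of the other 5 libraries (y axis, log2) by length of the longest annotated transcript (x axis, 8 classes of about equal size). The solid line is the median of each class and the shading its middle 50%, dashed lines are the medians of EFNA3 replicates 2 and 3, and points are the members: Notch1, Notch2 and Notch3 lie lowest, at -0.77, -0.58 and -0.62, and Hes1 and Hey1 highest, at 0.42 and 0.35.

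Without EFNA3 replicate 1 these differences were smaller. Notch1 then differed by -0.12, Notch2 by -0.031 and Notch3 by -0.052, while the median of genes in their length class was -0.057. Hes1 was at 0.033 and Hey1 at 0.066. Notch1 stayed below all controls in both remaining libraries, as it must where 3 of 3 were below, and 9.2% of all genes then lay wholly lower. Dll1 lay above all controls in both, and 10.4% of all genes then lay wholly higher.

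When transcript length and GC share were taken out of every library with all 6 kept, Notch1 differed by -0.18, Notch2 by -0.014 and Notch3 by -0.096, with adjusted p from 0.59 to 0.94 by limma. Notch1 no longer lay wholly below the controls, and 0 of the 10 members did, beside 6.27% of all genes. Under this correction Jag1 was higher by 0.15 (unadjusted p = 0.024, adjusted p = 0.59 by limma), and its 3 EFNA3 libraries, at 12.33, 12.20 and 12.21, lay above the controls at 12.09, 12.14 and 12.07. Hey1 differed by 0.14 and Hes1 by 0.097. In all, 4 members, Notch4, Jag1, Jag2 and Hey1, lay wholly higher on this scale, beside 8.91% of all genes.

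**Figure D4:**
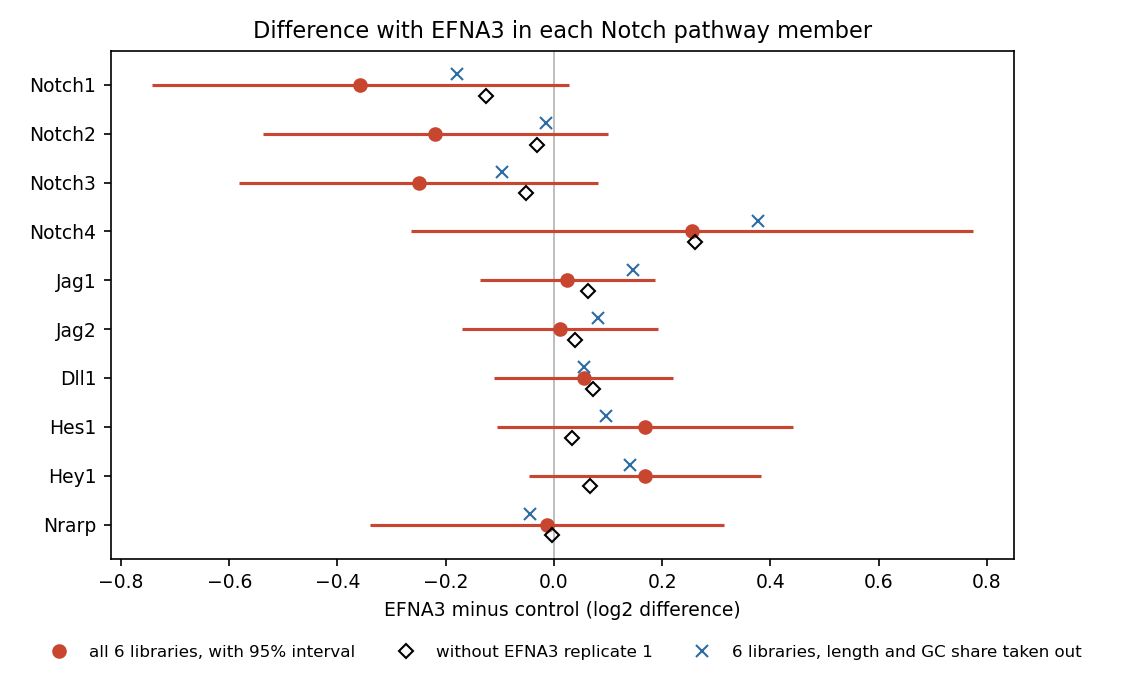
EFNA3 minus control (x axis, log2 difference) for each member (y axis). Filled circles with bars are the difference and its 95% interval over all 6 libraries, diamonds the difference without EFNA3 replicate 1, and crosses that with transcript length and GC share taken out; every 95% interval includes 0, and the diamonds for Notch2 and Notch3 lie at -0.031 and -0.052.

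Of 69 other Notch pathway genes listed by role, 61 were matched in the table and 58 were tested. None passed the limma test in either direction, 1 stood at an unadjusted p under 0.05 and 7 had groups without overlap, 6 lower and 1 higher. Over all genes tested, 6.73% had an unadjusted p under 0.05 and 16% had no overlap, 7.45% lower and 8.53% higher. The 1 and the 7 of 58 were thus not above the shares over both directions. By direction, the 6 of 58 wholly lower were a larger share than over all genes, and the 1 wholly higher a smaller share. Their median difference was -0.032. Dll4, a ligand best known from endothelium, was under the filter with a control mean of 3.15, and Dlk2 was the only other ligand gene tested, at 0.12 (SE 0.37).

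The nuclear list, with RBPJ, Mastermind and the coactivators and corepressors that meet at RBPJ, stood lowest, with a median of -0.20 and 10 of 12 genes lower. In 5 of the 12 the groups did not overlap, all lower with EFNA3, beside 7.45% of all genes. Crebbp, a histone acetyltransferase gene, differed by -0.18 (SE 0.08), and Spen, a corepressor gene, by -0.45 (SE 0.21); both had a limma adjusted p of 0.55. Rbpj itself, chosen after its values were seen, stood at 11.17, 11.18 and 11.26 in the controls and at 11.01, 11.11 and 11.09 with EFNA3, a difference of -0.13 (SE 0.07). The transcripts of the list are long, with a median of 7346 nt. Its median against the control mean was -0.48 in EFNA3 replicate 1, -0.086 in replicate 2 and -0.030 in replicate 3, so this list too leaned on the library that gave the lowest Notch1, Notch2 and Notch3. With length and GC share taken out, Crebbp stood at 0.036, Spen at -0.25 and Rbpj at -0.029.

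Genes that act before the nuclear step differed less on median. In the cleavage list, 3 of 9 genes were higher and 6 lower, with a median of -0.022; the presenilin gene Psen2 differed by 0.25 (SE 0.13) and the protease gene Adam10 by -0.11 (SE 0.10). Among genes of receptor maturation and glycosylation, 1 of 5 was higher, the fringe gene Lfng, at 0.21 (SE 0.12), and the fucosyltransferase gene Pofut1 differed by -0.092 (SE 0.089). Among 13 genes of endocytosis and turnover, 7 were higher and 6 lower, and the ubiquitin ligase genes Itch and Fbxw7 differed by -0.22 (SE 0.12) and -0.14 (SE 0.08).

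Other Hes and Hey family genes and corepressors, 10 tested, were 6 higher and 4 lower, with a median of 0.026. Tle5, of the Groucho family, was the 1 gene with an unadjusted limma p under 0.05, at 0.21 (SE 0.09; unadjusted p = 0.041, adjusted p = 0.55). Hes6, a family member known to oppose Hes1, stood at 9.12, 9.14 and 9.17 in the controls and at 9.49, 9.38 and 9.19 with EFNA3, a difference of 0.21 (SE 0.10) without overlap. Of 8 other genes reported as Notch targets, 4 were higher and 4 lower, with a median of 0.0013; Cdkn1a differed by 0.11 (SE 0.09) and Gata3, a luminal transcription factor gene, by 0.061 (SE 0.069).

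**Figure D5:**
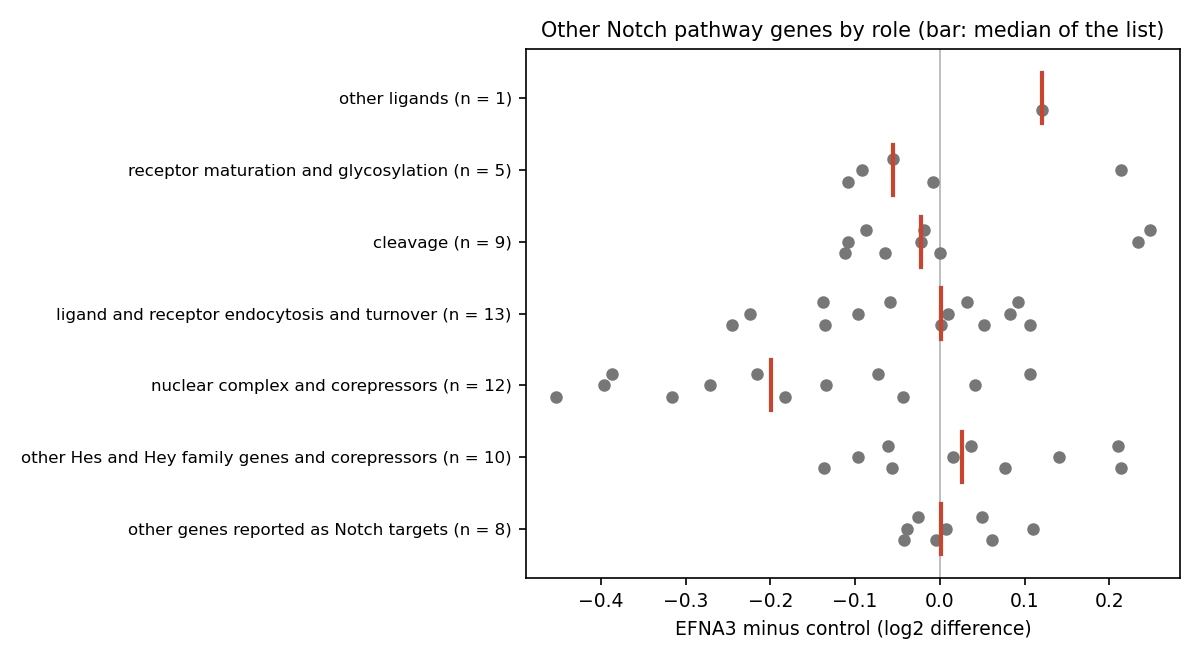
EFNA3 minus control (x axis, log2 difference) for the 58 other Notch pathway genes tested, by role (y axis, with the number tested). Points are genes and bars the median of each list; the nuclear complex and corepressor list lies lowest, with a median of -0.20, and no gene passed the limma test.

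As a check of the label, luminal markers were abundant: 8 of 8 were tested, led by Epcam at 14.57 ± 0.05 and Cd24a at 14.54 ± 0.02 in controls (log2, SD, n = 3). The basal keratin genes Krt14 and Krt5 were also high, at 16.26 ± 0.08 and 14.92 ± 0.02, while the contractile gene Myh11, the lowest of the basal list, stood at 2.65. The summed level of the 11 basal markers was 16.91 to 17.00 over the controls and 17.00 to 17.07 over the EFNA3 libraries (log2, as deposited). Krt14 and Krt5 led this sum, and 2 of the 11 had a control mean under the filter. The basal sum lay above that of the 8 luminal markers in both groups, but the sums cover different numbers of genes and do not rank the cell types. The high levels of Krt14 and Krt5 went against the luminal label, and the low level of Myh11 did not. Which cells expressed these keratins was not tested. The 7 luminal progenitor markers, all tested, summed to 15.42 to 15.51 over the controls and 15.45 to 15.60 over the EFNA3 libraries. They were led by Cd14 at 13.71 and Ltf at 12.85 in controls. The summed luminal markers spanned 16.57 to 16.64 over the controls and 16.65 to 16.88 over the EFNA3 libraries, and the summed hormone-sensing markers 13.11 to 13.22 and 12.76 to 13.09. Of the 10 endothelial markers listed, 7 matched and 3 of these were under the filter in controls, among them Cdh5 at 1.83, while Pecam1 stood at 8.27 and Erg at 7.13. Of 7 fibroblast markers, 6 matched, with a summed level of 10.96 to 11.01 over the controls and 10.83 to 10.96 over the EFNA3 libraries. They were led by Pdgfra at 10.29 and Fbln1 at 8.14 in controls. Of 6 immune markers, 3 matched, with sums of 7.33 to 7.69 and 7.35 to 7.57, led by Cd68 at 7.25 in controls. The part of these cell types in the Notch values was not tested.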

How the data were processed

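RNA sequencing values of 6 libraries were used, 3 control and 3 EFNA3, grouped by the treatment characteristic. The submitters' processing notes name Trim Galore, Subread, featureCounts and build mm39 for the authors' counting. Not given in the sources used here were versions, annotation, strand setting and the step to normalized values; without the strand setting, reads of a gene and an overlapping antisense gene cannot be told apart. The deposited table held log2 values (base inferred) from -0.79 to 18.1, and its 6 sorted columns differed by at most 0.00302, so the libraries had 1 common distribution with a median of 8.10. Depth is unknown, and a change common to all genes would not show.

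Genes at or above 3.32 (10 on the linear scale) in at least 3 libraries were tested, 16394 of 19739. The fit was limma 3.58.1 in R 4.3.3 on these values as deposited, without a pseudocount or block and with a mean-variance trend; p-values are two-sided, and adjusted by Benjamini-Hochberg over all genes tested. The smallest p that exact permutation of 3 against 3 libraries allows is 0.1. Standard errors and intervals are those of the moderated fit.

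Length and GC share came from each symbol's longest transcript in GENCODE M21, an earlier build, matched for 97.4% of genes tested. The correction for both took splines with 5 degrees of freedom out of every library. Levels per kb were log2 values minus the log2 of the length in kb, which takes the deposited values as not already divided by length. The fit and the correction were tested on simulated data. The members and lists were chosen with earlier results of these data known. All members were named, and of each other list up to 2 genes with the smallest unadjusted p; cell type lists were described by summed level and at most their 2 highest genes, with further genes named after their values were seen. Alternatives covered the filter, a pseudocount, scaling, library weights, the variance model, replicate blocks, length and GC share, and leaving out each library. Leaving out EFNA3 replicate 1 together with the length correction was added after seeing the data.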

Additional observations from a re-analysis of the deposited data

How the results depend on the processing

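None of the 10 members passed limma at an adjusted p under 0.05 with any of 18 alternatives. Notch1 was lower with 18 of 18, between -0.50 and -0.065. Its unadjusted limma p was under 0.05 with 5 of the 18, that of Jag1 with 2, and those of Notch3 and Hey1 with 1 each. Notch4, Dll1, Hes1 and Hey1 were higher with 18 of 18. With length and GC share taken out and EFNA3 replicate 1 left out, Notch2 stood at 0.038 and Notch3 at 0.0011, on the other side of 0. Leaving out single libraries gave Jag1 -0.013 to 0.064, Jag2 -0.054 to 0.048 and Nrarp -0.16 to 0.12, and library weights gave Nrarp 0.084; the cause was not tested. Over all genes tested, 0 passed except under 1 replicate block. By the title numbers, the block called 0 genes and left Notch1 at -0.36 (unadjusted p = 0.021). By the description numbers, of which 1 and 7 are shared, the block called 71 genes, none of them members, with Jag2 at -0.050. Differences under that block rested only on the libraries numbered 1 and 7, as the others had no partner. Their spread is thus poorly known, and the 71 are not read as an effect of EFNA3. The labels do not say whether title numbers pair the libraries. Deviations from the group means correlated at -0.11, 0.030 and -0.32 between libraries with the same title number, across 16394 genes. No control library correlated best with its own number, and of the EFNA3 libraries only replicate 2 did, at 0.030. Such deviations sum to 0 within each group, which ties the correlations to each other, so they cannot decide whether libraries are paired. In the order by control level, 8 members changed place per coding length, 6 with no division by length, and 0 to 2 without 1 control library. Unknown depth limits all of these values.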
